A study of Homo sapiens with 10 samples.

Results

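The 9 genes described here are NFE2L2, which encodes the transcription factor NRF2, and 8 genes of the antioxidant programme, OSGIN1, NQO1, HMOX1, GCLM, GCLC, SLC7A11, TXNRD1 and SRXN1. The list was chosen by function, and selected on the counts of these genes in all 5 groups, and each symbol matched 1 Ensembl identifier among the 58395 genes counted. All 9 passed the filter on low counts, which kept 16905 genes, SRXN1 through the libraries of the other siRNAs, since it had at most 6 raw counts with siNT1. RNA was sequenced from HeyA8, an established human ovarian cancer cell line, after transfection with 10 nM of an siRNA duplex. siGGGGGC and siGGCAGU carry the names of the 6 bases at positions 2 to 7 of their guide strand, the seed by which a guide pairs with mRNAs. siNT1 is the non-targeting duplex, written siNT1 S2'OM in the labels, a suffix the names of the other 2 siRNAs lack. In the methods of the study the sense strands of siNT1, siGGCAGU and siGGGGGC start with the same modified bases. The labels gave 5 groups of 2 libraries, siNT1 and siGGGGGC at 24 h, and siNT1, siGGCAGU and siGGGGGC at 48 h. The transfection field of the labels gives these names, and the titles write siMxy for siGGGGGC and si34a for siGGCAGU. The duplicates were separate wells of a single line, so errors reflect wells and library making, which may be technical, and untransfected cells were not analysed here. Both comparisons with siNT1 at 48 h used the same siNT1 libraries.

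NRF2 is held at a low level in unstressed cells by KEAP1, an adaptor that hands it to a CUL3 ubiquitin ligase. Oxidants and electrophiles release NRF2, which pairs with a small MAF protein and binds antioxidant response elements near genes for glutathione synthesis, thioredoxin recycling, quinone reduction and heme breakdown. BACH1 competes for the same elements, and the cargo receptor SQSTM1 (p62) can draw KEAP1 away. OSGIN1, oxidative stress induced growth inhibitor 1, is a known NRF2 target linked to restrained growth and cell death. The study asked how siGGGGGC kills cells, and miR-34a-5p, whose seed siGGCAGU carries, is a tumour suppressive microRNA.

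Total counts were 19781445 to 42428986 per library, and the small RNA genes RN7SL2 and SNORD3A took 19.83% to 31.96% of them. Of 9 markers looked at for an ovarian carcinoma line, KRT7, KRT8, KRT18 and VIM stood at 1943 normalised counts or more in every library. PAX8 stood at 87.0 to 908.9 and WT1 at 36.2 to 109.4, whereas EPCAM, KRT19 and MUC16 were low, with at most 51 raw counts. With siGGGGGC at 48 h PAX8 fell by 2.70 on the log2 scale against siNT1 (edgeR, adjusted p = 8.62e-10), and KRT8, KRT18, WT1 and KRT7 were also called lower, at -1.47, -1.38, -1.29 and -1.23. With siGGCAGU WT1 and EPCAM were called lower, at -1.33 and -1.13. Whether any of this has a part in the values below was not tested. In these bulk samples, fewer cells of a type and less RNA per cell cannot be told apart. The 8 markers of other cell types together had 10 to 34 raw counts per library, with CD3E at 0 or 1 and HBB at 0 or 1. GFAP had 6 to 20 and PECAM1 had 0 to 16, close to the floor. PECAM1 was called lower with siGGGGGC at 24 h (-2.6) and in siNT1 over time (-2.5). At 48 h it was called higher with siGGCAGU than with siNT1 (2.18) and lower with siGGGGGC than with siGGCAGU (-4.06).

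The sequences that bear on these genes are of 2 kinds, the seeds of the siRNAs and the letters of the antioxidant response element. Of 6 microRNAs with either seed, 4 are printed to show what part of the guide is shared, with bases 2 to 8 in capitals. Mature sequences are from RefSeq.
hsa-miR-34a-5p: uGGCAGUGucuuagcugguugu
hsa-miR-449a: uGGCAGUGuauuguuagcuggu
hsa-miR-1237-5p: cGGGGGCGgggccgaagcgcg
hsa-miR-4488: aGGGGGCGggcuccggcg
The former pair share GGCAGU with siGGCAGU and the latter pair share GGGGGC with siGGGGGC at positions 2 to 7.

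In the longest annotated 3′ UTR (GENCODE 44, hg38), GCCCCC, the match to the siGGGGGC seed, was found in 2 of the 9 genes, NFE2L2 and TXNRD1, with 1 copy each. It was in 31.61% of the tested protein-coding genes. ACTGCC, the match to the siGGCAGU seed, was found in 4 of 9, with 2 copies each in NFE2L2 and SRXN1 and 1 each in NQO1 and GCLM, beside 36.55% of tested genes. CGACTA, the match to the siNT1 seed, was found once in SLC7A11, beside 3.19%. OSGIN1, HMOX1 and GCLC held none of the 3 words, with longest 3′ UTRs of 325, 626 and 1415 bases. These 3 sites, with the match in capitals, include the stretch of NFE2L2 in which ACTGCC at base 2813 of the UTR runs into GCCCCC at base 2816.
NFE2L2, chromosome 2, minus strand, match at 177219120 to 177219125: tcttccaccaaaACTGCCccctttcatggg
TXNRD1, chromosome 12, plus strand, match at 104348553 to 104348558: ccaccgcccaagGCCCCCttggatctcttg
GCLM, chromosome 1, minus strand, match at 93888911 to 93888916: aaaaatctagttACTGCCtgtaaatggtgt
NFE2L2 and TXNRD1, with GCCCCC in the longest annotated 3′ UTR, had higher counts with siGGGGGC at both times, as given for each gene below. Which 3′ UTR the cells used was not measured, so whether the counted mRNAs hold the site is not known. With the shortest annotated 3′ UTR in place of the longest, no member held GCCCCC and 2 held ACTGCC.

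The core of the antioxidant response element, TGACNNNGC on either strand, was searched in RefSeq promoters of GRCh38.p14, 250 bases before to 50 after each start site. Of the 7 members with a promoter entry, GCLM and TXNRD1 held it, in 3 of 9 windows (33.33%), beside 13.35% of all 35116 promoters. The 30 bases around each match are shown with the core in capitals, 5′ to 3′ on the strand of the gene.
GCLM, chromosome 1, core at 93909456 to 93909464: tacgatttctGCTTAGTCAttgtcttccag
TXNRD1, chromosome 12, core at 104215680 to 104215688: acacgggctaTGACTTCGCtgttgtcaccg
TXNRD1, chromosome 12, core at 104215771 to 104215779: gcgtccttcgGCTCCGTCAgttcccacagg
TXNRD1, chromosome 12, core at 104286930 to 104286938: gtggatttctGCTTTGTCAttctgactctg
The windows of OSGIN1, NQO1, NFE2L2, GCLC and SRXN1 do not hold these letters, which says nothing of elements elsewhere. Of the wider NRF2 pathway list taken up below, 13 of 37 genes with an entry had a match, beside 4384 of all 27305 genes. KEAP1 had 2, of which 1 reads as the GCLM core does, and SLC3A2 had 1 with TCA at the open positions.
KEAP1, chromosome 19, core at 10502794 to 10502802: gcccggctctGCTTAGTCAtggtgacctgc
SLC3A2, chromosome 11, core at 62881662 to 62881670: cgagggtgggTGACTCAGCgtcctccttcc

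Values below are normalised counts, raw counts scaled by the TMM library sizes of edgeR to a common depth of 25982985, with log2 fold changes from the edgeR quasi-likelihood fit of all 10 libraries and their standard errors (SE). A gene was called at an adjusted p below 0.05 and a log2 fold change beyond 1. Since the members were chosen with these values known, their levels and fold changes are descriptions and no p is given for them. A standard error here rests on the fit of all 10 libraries, n = 2 per group, with 5 residual degrees of freedom. An SD rests on the 2 libraries of its own group alone. Duplicates were not equally close in every group. Over genes, their log2 values lay apart with an SD of 0.147 for siNT1 and 0.179 for siGGGGGC at 24 h. At 48 h this was 0.234 for siNT1, 0.277 for siGGCAGU and 0.161 for siGGGGGC. The fit takes the same spread for all groups, so the standard errors do not show this.

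NFE2L2 (ENSG00000116044, chromosome 2, 177218667 to 177392756, minus strand) was higher in every siGGGGGC and siGGCAGU library than in the siNT1 libraries of its time. It stood at 792.4 and 792.1 with siNT1 and 1023 and 1047 with siGGGGGC at 24 h. At 48 h it stood at 985.2 and 803.2 with siNT1, 1882 and 1933 with siGGCAGU, and 2927 and 2650 with siGGGGGC. The log2 fold change with siGGGGGC was 0.39 (SE 0.1) at 24 h and 1.64 (SE 0.1) at 48 h. With siGGCAGU at 48 h it was 1.10 (SE 0.1). None of the 5 groups overlapped, in the order siNT1 at 24 h, siNT1 at 48 h, siGGGGGC at 24 h, siGGCAGU and siGGGGGC at 48 h. The means of both siNT1 groups differed by less than the SD of the later group (128.7). Other annotated genes overlap 38.4% of the exon bases of NFE2L2.

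OSGIN1 (ENSG00000140961, chromosome 16, 83931311 to 83966332, plus strand) had the largest fold change with siGGGGGC of the 9 genes at 48 h. With siNT1 it stood at 278 and 292 normalised counts at 24 h, and at 325.3 and 342.6 at 48 h. With siGGGGGC it stood at 1153 and 1102 at 24 h, a mean of 1128 ± 36.0 (SD, n = 2). By 48 h the siGGGGGC libraries held 12996 and 13799, a mean of 13398 ± 568 (SD, n = 2). The siGGCAGU libraries at 48 h held 1374 and 1527, much nearer to siGGGGGC at 24 h than to siGGGGGC at 48 h. In fold terms OSGIN1 was 3.96-fold higher with siGGGGGC than with siNT1 at 24 h and 40.1-fold higher at 48 h, and 4.34-fold higher with siGGCAGU. The log2 fold changes were 1.98, 5.32 and 2.12, with SE of 0.1, 0.1 and 0.094. At 48 h siGGGGGC exceeded siGGCAGU 9.23-fold, a log2 difference of 3.20 (SE 0.093). The siGGGGGC effect was 3.34 (SE 0.14) larger on the log2 scale at 48 h than at 24 h. None of the 5 groups overlapped another.

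NQO1 (ENSG00000181019, chromosome 16, 69706996 to 69726668, minus strand), a quinone reductase and the usual readout of NRF2 activity, was abundant in the siNT1 libraries. With siNT1 it stood at 25014 and 25174 at 24 h and at 25700 and 28098 at 48 h. It reached 41571 and 42918 with siGGGGGC at 24 h. At 48 h it reached 65180 and 55373 with siGGCAGU and 130802 and 136777 with siGGGGGC, more than in any other group. Those levels are 1.68-fold, 2.24-fold and 4.97-fold the siNT1 mean of the same time. The log2 fold changes were 0.75, 1.16 and 2.31, each with an SE of 0.11.

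HMOX1 (ENSG00000100292, chromosome 22, 35380361 to 35394214, plus strand), heme oxygenase 1, which opens the heme ring and is repressed by BACH1, had another order. At 24 h it stood at 386.6 and 415.1 with siNT1 and at 371 and 327.5 with siGGGGGC. At 48 h it stood at 540.6 and 589.5 with siNT1, 430.3 and 438.8 with siGGCAGU, and 1070 and 932 with siGGGGGC. HMOX1 was thus below siNT1 with siGGGGGC at 24 h and with siGGCAGU at 48 h, and above it with siGGGGGC at 48 h. The log2 fold changes were -0.20 (SE 0.12), -0.38 (SE 0.11) and 0.82 (SE 0.1) in that order. At 48 h siGGGGGC exceeded siGGCAGU 2.30-fold. HMOX1 was the member not past the call threshold with siGGGGGC at 48 h, and siNT1 at 48 h was itself 1.41-fold above siNT1 at 24 h.

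**Figure D1:**
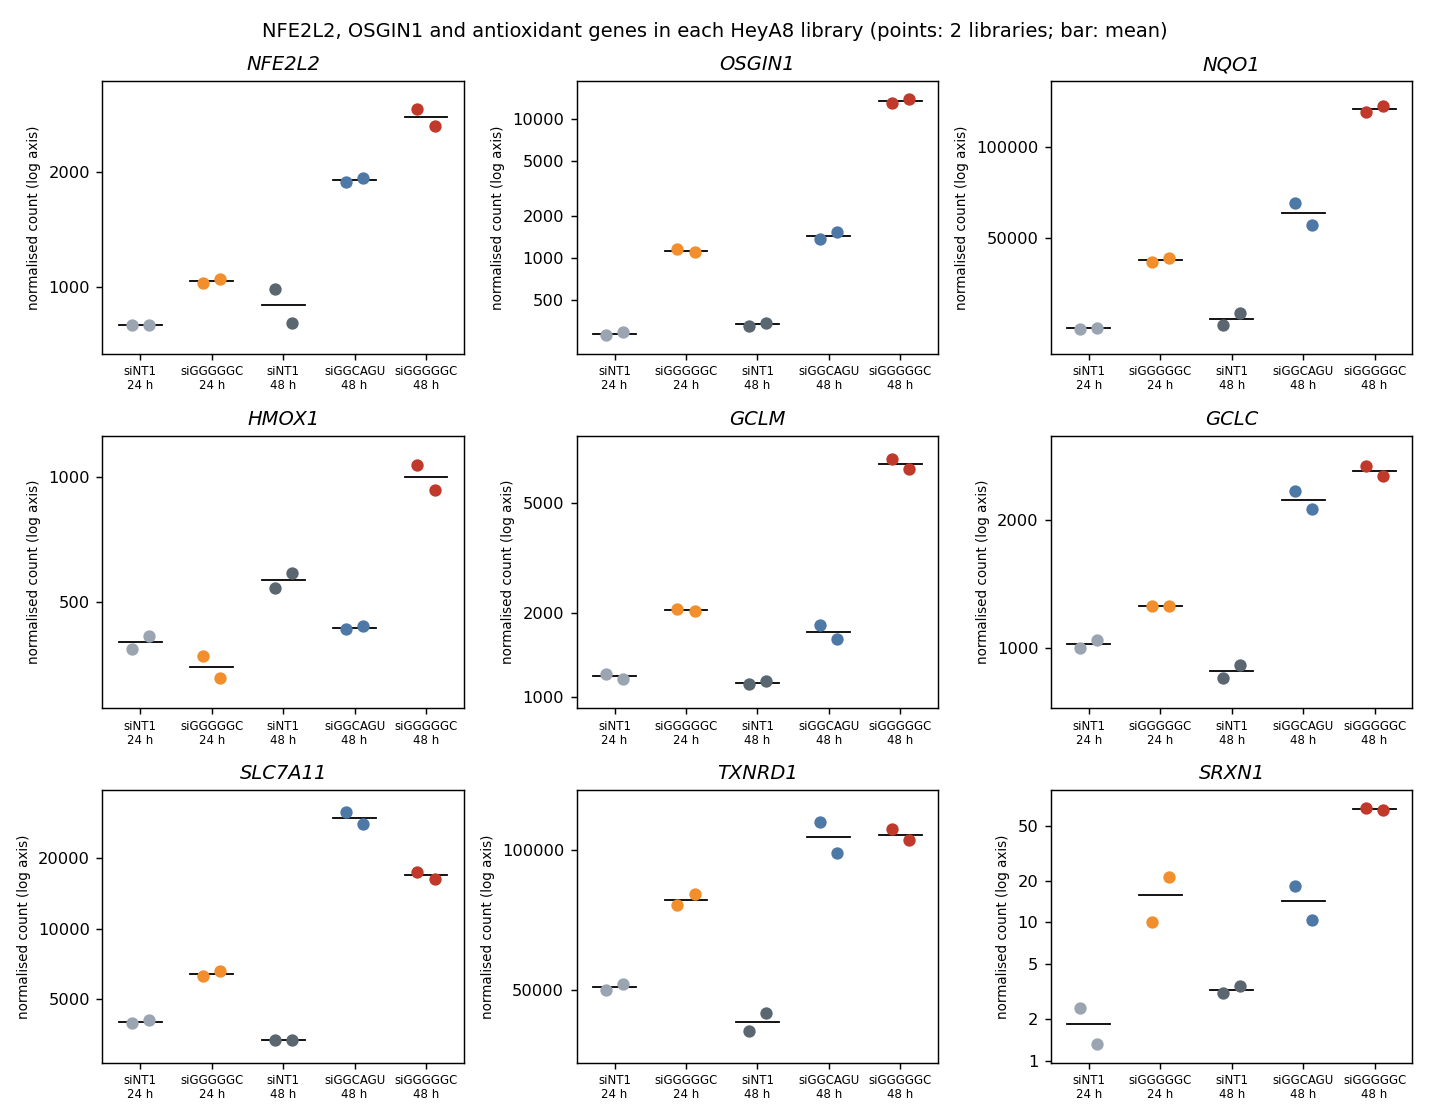
Normalised counts (log axis, 1 scale per gene) of the 9 genes in each HeyA8 library, by siRNA and time, with 2 points per group for the libraries and a bar for their mean. OSGIN1 reached 12996 and 13799 with siGGGGGC at 48 h, while SLC7A11 was highest with siGGCAGU and HMOX1 with siGGCAGU lay below siNT1 of the same time.

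Glutathione is made by glutamate-cysteine ligase, whose catalytic subunit is GCLC and whose modifier subunit is GCLM, from cysteine that enters as cystine through SLC7A11. GCLM (ENSG00000023909, chromosome 1, 93885199 to 93909456, minus strand) stood at 1215 and 1157 with siNT1 and 2074 and 2035 with siGGGGGC at 24 h. At 48 h it stood at 1113 and 1142 with siNT1, 1814 and 1619 with siGGCAGU, and 7141 and 6595 with siGGGGGC. GCLM was therefore 1.73-fold higher with siGGGGGC at 24 h, 6.09-fold at 48 h and 1.52-fold with siGGCAGU. Its log2 difference between siGGGGGC and siGGCAGU at 48 h was 2.00 (SE 0.089).

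The catalytic subunit had another pattern. GCLC (ENSG00000001084, chromosome 6, 53497341 to 53616970, minus strand) stood at 996.4 and 1044 with siNT1 and 1253 and 1255 with siGGGGGC at 24 h. By 48 h its libraries held 847.3 and 911.4 with siNT1, 2346 and 2118 with siGGCAGU, and 2688 and 2534 with siGGGGGC. Both siRNAs were well above siNT1 at 48 h, by 1.34 with siGGCAGU and 1.57 with siGGGGGC on the log2 scale (SE 0.088 each). They differed from each other by 0.23 (SE 0.086), whereas GCLM differed 4.00-fold.

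SLC7A11 (ENSG00000151012, chromosome 4, 138164097 to 138242349, minus strand), the cystine and glutamate exchanger, was the member higher with siGGCAGU than with siGGGGGC beyond the libraries' spread. It stood at 3939 and 4081 with siNT1 and 6280 and 6582 with siGGGGGC at 24 h. Later, at 48 h, its counts were 3351 and 3335 with siNT1, 31353 and 28021 with siGGCAGU, and 17447 and 16230 with siGGGGGC. SLC7A11 was 8.88-fold above siNT1 with siGGCAGU and 5.04-fold with siGGGGGC. The log2 difference between siGGGGGC and siGGCAGU was -0.82 (SE 0.09), short of the call threshold in size. With siGGCAGU it had the largest fold change of the 9 genes, 3.15 on the log2 scale (SE 0.098), ahead of OSGIN1.

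TXNRD1 (ENSG00000198431, chromosome 12, 104215779 to 104350307, plus strand), thioredoxin reductase 1, which keeps thioredoxin reduced with NADPH, had overlapping levels with both siRNAs at 48 h. It stood at 50052 and 51604 with siNT1 and 76230 and 80211 with siGGGGGC at 24 h. The 48 h libraries held 40924 and 44694 with siNT1, 114860 and 98428 with siGGCAGU, and 110703 and 104988 with siGGGGGC. These 48 h groups of both siRNAs overlap, and their log2 difference was 0.02 (SE 0.11). Against siNT1 the log2 fold change was 1.32 with siGGCAGU and 1.33 with siGGGGGC (SE 0.11 each). It had been 0.62 (SE 0.11) with siGGGGGC at 24 h.

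SRXN1 (ENSG00000271303, chromosome 20, 646615 to 653200, minus strand), sulfiredoxin, which repairs over-oxidised peroxiredoxins, rests on few reads. Its raw counts were 2 and 1 with siNT1 and 7 and 15 with siGGGGGC at 24 h. At 48 h they were 4 and 6 with siNT1, 14 and 14 with siGGCAGU, and 60 and 63 with siGGGGGC. Summed over the group, siGGGGGC had 123 raw counts at 48 h and siNT1 had 10, a depth-scaled ratio of 20.1. At 24 h the ratio was 8.44, and with siGGCAGU it was 4.03. SRXN1 was kept by the filter through the libraries where it is high, so these ratios are descriptions only. A readthrough gene on the same strand covers 90.7% of the exon bases of SRXN1, and htseq in its usual setting sets aside reads that 2 genes share, so the counts may hold a small part of its reads.

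Across the 9 genes, the median log2 fold change with siGGGGGC was 0.68 at 24 h (range -0.20 to 3.00) and 2.31 at 48 h (0.82 to 5.32). With siGGCAGU it was 1.32 (-0.38 to 3.15). Over all tested genes the medians were 0.003, -0.011 and 0.024. The call threshold was passed upward by 2 members, OSGIN1 and SRXN1, with siGGGGGC at 24 h, beside 1.55% of all genes in that direction. Without replicate 2 of siNT1 or of siGGGGGC at 24 h SRXN1 no longer passed it, and DESeq2 gave SRXN1 no adjusted p. The threshold was passed upward by 8 members with siGGGGGC at 48 h, where the share of all genes was 10.5%, and by 7 with siGGCAGU, where it was 10.7%. The members were listed with these counts known, so nothing is read from that difference. In each of the 3 comparisons the libraries of the 2 groups did not overlap for any of the 9 genes. The same held for all 9 between siNT1 at 48 h and at 24 h, so it is not particular to the other siRNAs. With 2 libraries per group such separation is easily reached, and its share over all genes was not counted. siNT1 at 48 h against 24 h gave a median of 0.10 (range -0.26 to 0.77) and no member past the threshold by edgeR or by DESeq2, where 1.06% of all genes were called higher and 0.461% lower. At an unadjusted p below 0.05 that comparison had 5 members by edgeR, 2 higher and 3 lower, and by DESeq2 1 higher and 2 lower. The share of all genes at that level was not counted, so nothing is read from these counts.

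At matched dose and time, siGGGGGC was higher than siGGCAGU in 8 of the 9 genes at 48 h. OSGIN1, SRXN1, GCLM, HMOX1 and NQO1 were past the call threshold, with log2 differences of 3.20, 2.28, 2.00, 1.20 and 1.15, where 10.1% of all genes were called higher. NFE2L2 at 0.55 (SE 0.098), GCLC at 0.23 and TXNRD1 at 0.02 were not past it, nor was SLC7A11 on the other side. The siGGGGGC effect at 48 h exceeded that at 24 h by a median of 1.28 on the log2 scale, from 0.71 in TXNRD1 to 3.34 in OSGIN1. That difference of effects was past the threshold for 7 members, where 4.83% of all genes were called higher and 6.36% lower. SRXN1 and TXNRD1 were the others.

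**Figure D2:**
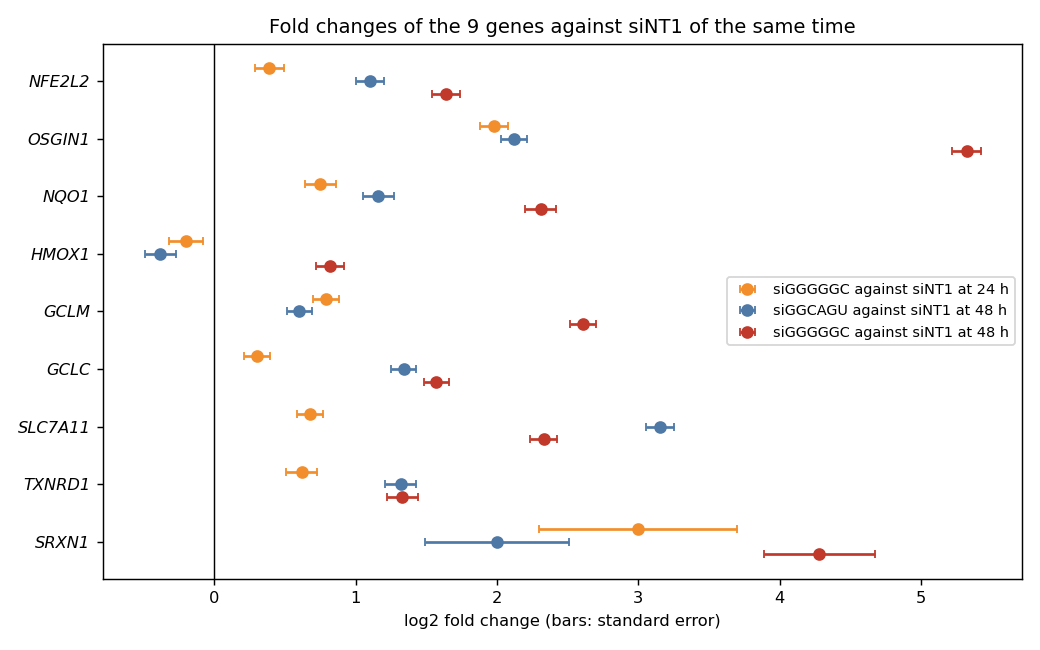
Log2 fold change of each of the 9 genes against siNT1 of the same time, with bars for the standard error of the edgeR fit. OSGIN1 with siGGGGGC at 48 h lies at 5.32, SLC7A11 is the gene with siGGCAGU beyond siGGGGGC, and HMOX1 lies on both sides of 0.

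Levels of different genes can be set side by side only per length, here as CPM, counts scaled to library size, per kilobase of merged exons (CPM per kb). On that scale, with siNT1 at 48 h, NQO1 was the most abundant of the 9 at 348.5 and TXNRD1 followed at 245.5. SLC7A11 at 13.3, HMOX1 at 9.43, GCLM at 8.00 and GCLC at 3.93 came next. OSGIN1 at 2.31 and NFE2L2 at 2.30 came out close to each other, and SRXN1 was lowest at 0.0497. With siGGGGGC at 48 h OSGIN1 had 92.8 CPM per kb and ranked 3 of 9, where it had ranked 7 with siNT1. The exon lengths came from another annotation release than the one used for counting. They include bases shared with other genes, 38.4% for NFE2L2 and 90.7% for SRXN1, whose reads may not have been counted. The order of the genes therefore depends on these lengths, as does the closeness of OSGIN1 (5558 bases) and NFE2L2 (14975 bases).

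The other genes of the pathway were 51 genes in 7 roles, of which 46 were tested. GPX2, GSTM2, GSTM3 and ALDH3A1 had too few counts, at most 11 in a library, and no identifier was matched to SOD2. With siGGGGGC at 48 h, 20 of the 46 rose and 2 fell, beside 10.5% and 11% of all genes. With siGGCAGU at 48 h, 18 rose and 1 fell, beside 10.7% and 9.62%. At 24 h with siGGGGGC, 3 rose and 1 fell, beside 1.55% and 2.17%. Without replicate 2 of siNT1 at 48 h the genes that fell were 1 with siGGGGGC and 0 with siGGCAGU, since GSS at -0.94 and SLC48A1 at -0.97 came short of the threshold in size. Medians over the list were 0.84, 0.83 and 0.13 on the log2 scale. Between siGGGGGC and siGGCAGU at 48 h, 3 were called higher with siGGGGGC and 5 lower, beside 10.1% and 12.8% of all genes, with a median of 0.06. Genes named below outside the stated rule were chosen after their values were seen.

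Among the 10 regulators, 4 rose and 1 fell with siGGGGGC at 48 h. SQSTM1 stood at 3618 and 3638 normalised counts with siNT1, 17897 and 15746 with siGGCAGU, and 54037 and 52852 with siGGGGGC at 48 h. Its groups lay far apart, although genes on the other strand overlap 22.4% of its exon bases. SQSTM1 was 14.7-fold higher with siGGGGGC and 4.64-fold higher with siGGCAGU. At 24 h it rose from 2763 and 3104 to 7048 and 8008 with siGGGGGC. It was listed with its rise with siGGGGGC at 48 h already known. No p is therefore given for it, although it is counted among the genes that rose. KEAP1, the inhibitor, stood at 1522 and 1428 with siNT1 and at 3360 and 3548 with siGGGGGC at 48 h, a rise of 1.23 on the log2 scale (SE 0.088, edgeR adjusted p = 1.99e-08). With siGGCAGU KEAP1 stood at 2368 and 2565, a log2 fold change of 0.74 that was not called.

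The small MAF partners MAFF and MAFK rose with siGGGGGC at 48 h, by 1.25 and 1.31 (edgeR, adjusted p = 8.13e-08 and 2.26e-06). MAFG stood at 0.99 and was not called. The competitor BACH1 stood at 0.86 with siGGGGGC and 0.83 with siGGCAGU, neither called, and both groups of libraries overlapped. BTRC, part of a second ligase for NRF2, stood at 527.6 and 475.3 with siGGGGGC and at 160.9 and 179.3 with siGGCAGU at 48 h, a called log2 difference of 1.55 (edgeR, adjusted p = 3.19e-08). NFE2L1, an NRF2 relative that drives proteasome genes, fell by 1.26 with siGGGGGC at 48 h, from 3392 and 3154 to 1386 and 1348 (edgeR, adjusted p = 9.83e-07).

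**Figure D3:**
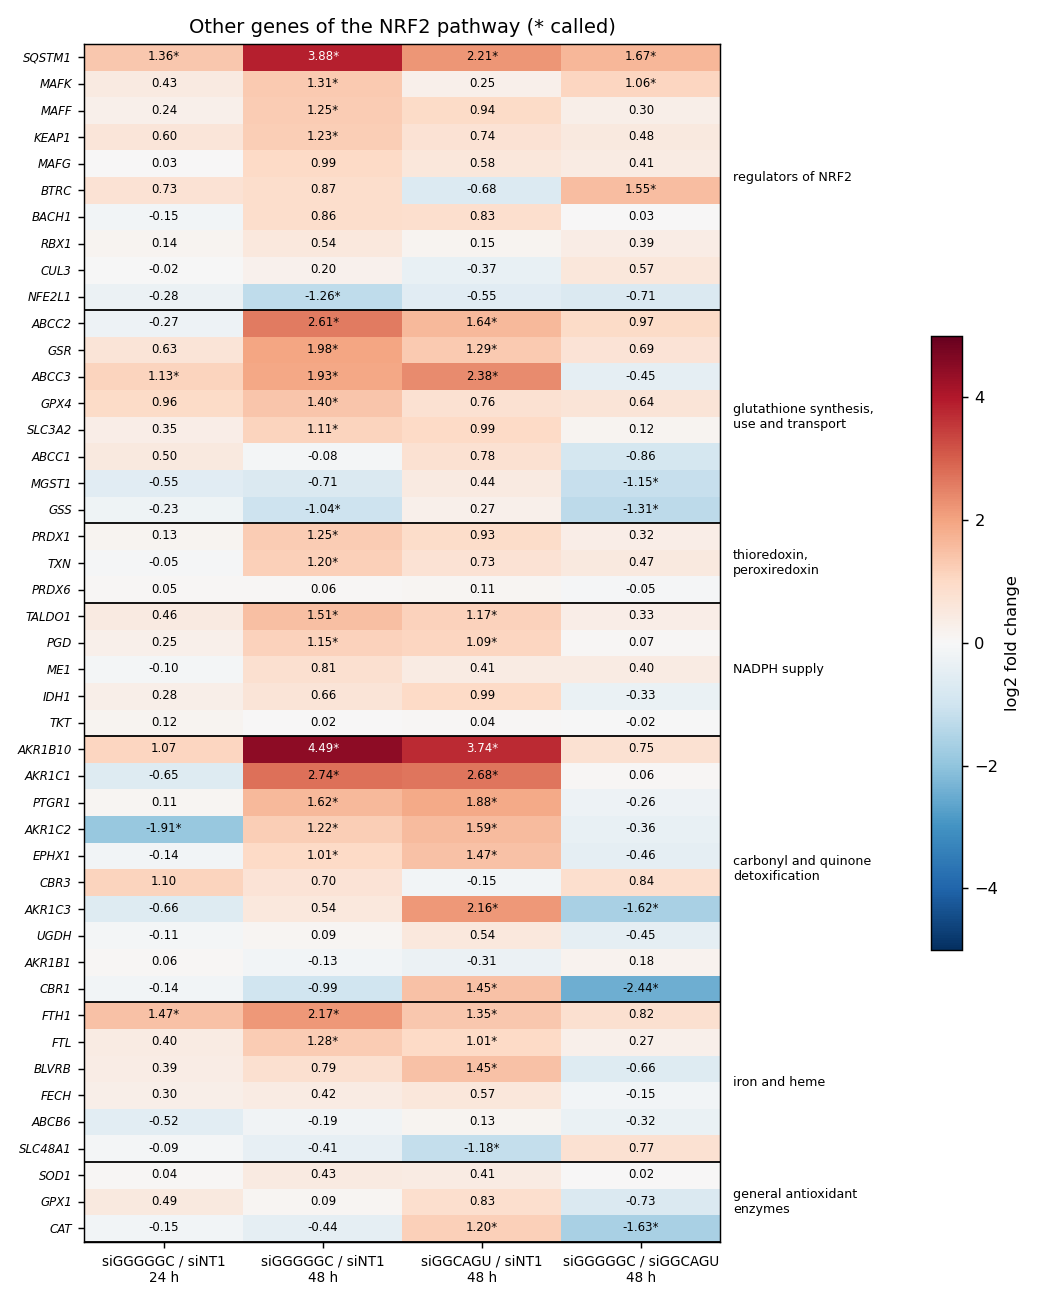
Log2 fold changes of 45 of the 46 tested genes of the wider NRF2 pathway list (rows, by role) in 4 comparisons (columns), with the value in each cell and an asterisk on genes called at an adjusted p below 0.05 and a log2 fold change beyond 1. Of the 46, 20 rose with siGGGGGC and 18 with siGGCAGU at 48 h, and CBR1 had the largest fall between the 2 siRNAs at -2.44.

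Of 8 genes for glutathione synthesis, use and transport, 5 rose and 1 fell with siGGGGGC at 48 h. Those that rose were the exporters ABCC2 and ABCC3, glutathione reductase GSR, the lipid peroxidase GPX4 and SLC3A2, the heavy chain that pairs with SLC7A11, at 2.61, 1.93, 1.98, 1.40 and 1.11 on the log2 scale. GSS, glutathione synthetase, the enzyme after glutamate-cysteine ligase, went the other way. It stood at 2139 and 2468 with siNT1, 2923 and 2638 with siGGCAGU, and 1067 and 1177 with siGGGGGC. GSS fell by 1.04 with siGGGGGC (SE 0.097, edgeR adjusted p = 3.11e-07), and its log2 difference between siGGGGGC and siGGCAGU was -1.31 (edgeR, adjusted p = 2.33e-08). With siGGCAGU 3 of the 8 rose, ABCC3, ABCC2 and GSR.

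Of the thioredoxin and peroxiredoxin genes, TXN, the substrate of TXNRD1, and PRDX1, a substrate of SRXN1, rose with siGGGGGC by 1.20 and 1.25, and PRDX6 at 0.06 was not called. With siGGCAGU TXN and PRDX1 stood at 0.73 and 0.93, not called. Among 6 genes of NADPH supply, TALDO1 and PGD of the pentose phosphate pathway rose with both siRNAs, by 1.51 and 1.15 with siGGGGGC and by 1.17 and 1.09 with siGGCAGU. TKT was at 0.02 and 0.04.

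Of 10 genes of carbonyl and quinone detoxification, 5 rose with siGGGGGC at 48 h and 7 with siGGCAGU. AKR1C1, an aldo-keto reductase, stood at 1011 and 1310 with siNT1, 7622 and 7322 with siGGCAGU, and 8206 and 7351 with siGGGGGC at 48 h. It rose 6.44-fold and 6.70-fold, and both siRNAs overlapped. At 24 h with siGGGGGC it stood below siNT1, at 470.6 and 456.2 against 675.4 and 779, a log2 fold change of -0.65 (edgeR, adjusted p = 0.0025) short of the threshold in size. AKR1C2 fell by 1.91 at that time, from 47.7 and 44.5 to 13.0 and 11.4 (edgeR, adjusted p = 0.00256), and rose by 1.22 at 48 h (edgeR, adjusted p = 0.000245). AKR1C3 stood at 672.3 and 816.9 with siNT1, 3387 and 3269 with siGGCAGU, and 1173 and 997.2 with siGGGGGC, a log2 difference between the siRNAs of -1.62 (edgeR, adjusted p = 8.22e-09). AKR1C genes are near copies of each other, so their counts are uncertain.

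CBR1, a carbonyl reductase, had the largest fall of the list between the siRNAs. Other genes overlap 18.9% of its exon bases. It stood at 1097 and 1183 with siNT1, 3309 and 2916 with siGGCAGU, and 581.2 and 566.4 with siGGGGGC at 48 h. It was therefore above siNT1 with one and below it with the other, by 1.45 (edgeR, adjusted p = 3.48e-09) and -0.99 (edgeR, adjusted p = 3.57e-07), the latter just short of a call. The log2 difference was -2.44 (SE 0.095, edgeR adjusted p = 3.12e-11). The 5 genes of this role that rose with siGGGGGC were AKR1B10, AKR1C1, PTGR1, AKR1C2 and EPHX1, of which AKR1B10 averaged 6.82 normalised counts with siNT1.

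Of 6 genes of iron and heme, FTH1 and FTL, the ferritin chains, rose with siGGGGGC at 48 h by 2.17 and 1.28 and with siGGCAGU by 1.35 and 1.01. FTH1 also rose by 1.21 in siNT1 between 24 h and 48 h (edgeR, adjusted p = 0.000392). It has many processed pseudogenes, and 63.2% of its exon bases are overlapped by another gene on the other strand, so its counts are uncertain. BLVRB, biliverdin reductase B, rose with siGGCAGU by 1.45 and stood at 0.79 with siGGGGGC. SLC48A1, a heme transporter, fell by 1.18 with siGGCAGU (edgeR, adjusted p = 2.45e-05). Among the general antioxidant enzymes, CAT, catalase, stood at 860.5 and 882.8 with siNT1, 2045 and 1950 with siGGCAGU, and 634.9 and 653.4 with siGGGGGC, and it rose by 1.20 with siGGCAGU (edgeR, adjusted p = 2.41e-08). SOD1 and GPX1 were not called in any of these comparisons. MGST1, a microsomal glutathione transferase, completed the 5 genes called lower with siGGGGGC than with siGGCAGU, at -1.15, beside GSS, AKR1C3, CBR1 and CAT.

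Over time, 14 of the 46 had a larger siGGGGGC effect at 48 h than at 24 h by the interaction term, beside 4.83% of all genes, and 9 did without the filter on low counts. The 5 largest differences of effects were those of AKR1B10, AKR1C1, AKR1C2, ABCC2 and SQSTM1, at 3.42, 3.39, 3.13, 2.89 and 2.52. That of AKR1B10, then at 2.7, lost its call on adjusted p without replicate 1 of siNT1 at 24 h. With 1 library left out, calls were also lost in some fits for EPHX1 (0.97 to 1.18, on adjusted p), TALDO1 (0.99 and 1.0) and PRDX1 (0.96). The same held for BACH1 and MAFF, as given below. In siNT1 itself FTH1 and ABCC3 were called higher at 48 h than at 24 h, beside 1.06% of all genes. Without replicate 2 of siNT1 at 24 h ABCC3 was at 0.89 and FTH1 alone was called.

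The genes whose profile over the 10 libraries was most like that of OSGIN1 were found by the root mean square difference of log2 CPM after centring each gene on its own mean, over 9978 genes with a mean of at least 100 normalised counts. The 5 nearest were SQSTM1 at 0.587, ATF3, a stress-response transcription factor, at 0.641, GABARAPL1, an autophagosome protein, at 0.854, FOS, an immediate early transcription factor, at 0.859 and ARRDC3, an arrestin-domain protein, at 0.888. The median over all those genes was 2.01. Of the other members, GCLM at 1.09 ranked 23 and NQO1 at 1.13 ranked 30, whereas HMOX1 at 1.65 ranked 733. SRXN1 was at 0.674 but below the count minimum.

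The 5 nearest genes shared the high level with siGGGGGC at 48 h and differed elsewhere. OSGIN1 is far higher in that group than in the others, so the distance picks genes that are high there. The shared level is therefore no separate result. Mean normalised counts of ATF3 were 63.1 with siNT1, 158 with siGGCAGU and 828 with siGGGGGC at 48 h. FOS stood at 58.0, 61.4 and 883.3 in the same order, so with siGGCAGU it stood close to siNT1. ARRDC3 at 24 h stood at 490.9 with siNT1 and 460.3 with siGGGGGC, where OSGIN1 was already 3.96-fold higher. GABARAPL1 at 48 h stood at 426 with siNT1, 3056 with siGGCAGU and 5614 with siGGGGGC, nearer together than the 2 siRNAs were for OSGIN1.

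**Figure D4:**
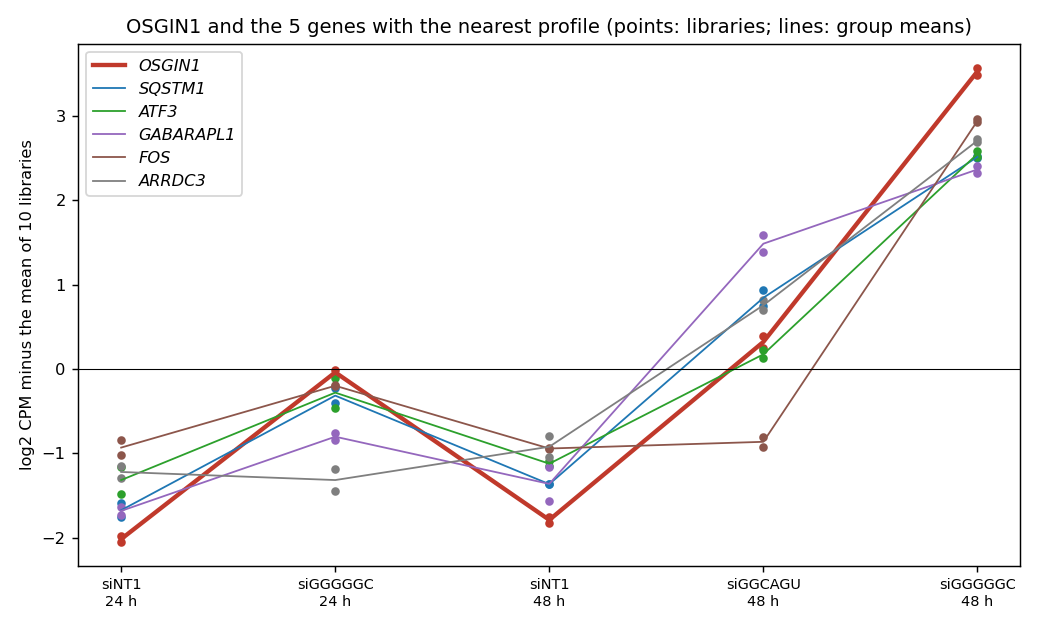
Log2 CPM minus the mean of the 10 libraries for OSGIN1 and the 5 genes with the nearest profile, with points for libraries and lines through group means. All 6 are highest with siGGGGGC at 48 h, which follows from the choice by distance, and OSGIN1 averaged 13398 normalised counts there. They part with siGGCAGU, where FOS stood at 61.4 against 58.0 with siNT1.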

How the data were processed

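Per the labels and the methods of the study, total RNA of HeyA8 cells was depleted of ribosomal RNA and sequenced as paired-end libraries. The authors trimmed reads with Trimmomatic, mapped them to hg38 by TopHat or STAR, and counted those in exons of Ensembl genes by htseq. The submitters' processing notes name TopHat, Bowtie2, HTSeq and DESeq2. The strand setting is not given in the sources used here, so reads of overlapping genes on opposite strands may not be told apart. The deposited files held raw counts per gene, whole numbers without normalization, for 58395 genes and 0 entries naming no gene. The authors' 4 tables of comparisons (fold changes and p-values) were not used.

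Counts were filtered with filterByExpr and fitted with edgeR 4.0.16 (TMM, glmQLFit, glmQLFTest, 5 groups, all 10 libraries, R 4.3.3), with Benjamini-Hochberg adjustment over 16905 genes. DESeq2 1.42.0 was an alternative. In simulated counts for siGGGGGC against siNT1 at 48 h (16454 genes), 100% of 100 genes changed by log2 1.5 and 100% of 100 changed by log2 3 were called. The changed genes all had a mean of at least 100 raw counts, and every gene was given the same spread. Recovery of genes with lower counts was not assessed. Symbols were matched for 98.9% of identifiers from GENCODE 44, and standard errors are the log2 fold change over the root of F.

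The members, lists and rules were chosen with earlier results of these data known. Besides KEAP1, BACH1, the small MAF genes and SQSTM1, the rule named up to 3 called genes per direction of the wider list in each comparison between siRNAs, by size, with a mean of at least 100 normalised counts and no overlap between groups. Many genes of the list share exon bases with other genes, most in CBR3 (71.1%), FTH1 (63.2%), ABCB6 (54.6%), GPX1 (39.9%) and PRDX1 (29.8%). For log2 CPM a prior count of 2 was added. Of the tested genes of the list, 1 is counted but not reported here by name or in a figure.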

Additional observations from a re-analysis of the deposited data

Results flagged for a closer look

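The interaction term of edgeR found a siGGGGGC effect that differed between 48 h and 24 h for 14 genes of the wider list. The 6 given first were named as regulators whatever their values, as BACH1 and MAFF were, or by the rule on size and level. The differences of effects on the log2 scale were 3.39 for AKR1C1 (adjusted p = 1.14e-08), 2.89 for ABCC2 (adjusted p = 4.3e-05), 2.52 for SQSTM1 (listed with its rise known, so without a p), 1.20 for AKR1C3 (adjusted p = 9.61e-05), 1.01 for MAFF (adjusted p = 0.000142) and 1.01 for BACH1 (adjusted p = 3.71e-05). Without a filter on low counts MAFF and BACH1 both stood at 0.88. With 1 library left out they fell short of the threshold in size in 5 (BACH1) and 6 (MAFF) of the 10 cases, at lowest 0.94 and 0.86. In SQSTM1 both times were above siNT1, whereas AKR1C1 and AKR1C3 stood below siNT1 at 24 h, at -0.65 and -0.66, and above it at 48 h, at 2.74 and 0.54. AKR1C2, outside that rule, was called in both directions, at -1.91 and 1.22, with a difference of 3.13 (adjusted p = 8.82e-05). ABCC2 had 23 and 25 raw counts with siGGGGGC at 24 h.

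HMOX1 lay on opposite sides of siNT1 in every library. With siGGGGGC its log2 fold change was -0.20 at 24 h and 0.82 at 48 h, and with siGGCAGU it was -0.38 at 48 h. These differences are given without a test, since HMOX1 was listed with its counts known.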

How the results depend on the processing

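In none of the alternatives run did a called value of a member, a named regulator or a gene named by the rule change direction. Scaling by total counts gave OSGIN1 log2 fold changes of 1.89 and 5.17 with siGGGGGC at 24 h and 48 h, 1.97 with siGGCAGU and 0.47 in siNT1 over time. It put the all-gene medians of the last 3 at -0.17, -0.13 and 0.23. It also gave 4 wider-list genes called higher over time and 1 with a smaller siGGGGGC effect at 48 h, as did removing RN7SL2 and SNORD3A (1). Without a filter on low counts OSGIN1 stood at 5.20 with siGGGGGC at 48 h, 0.31 over time and 3.21 for the difference of effects, for which 9 wider-list genes were then larger and 1 smaller at 48 h, with all-gene medians of -0.13, 0.08 and -0.15. With siGGGGGC at 24 h, 1 member passed the threshold with a mean count of at least 50, with only the libraries compared and with DESeq2, since SRXN1 was then filtered out or given no adjusted p. Leaving out 1 library at a time gave 1 to 2 (1 without replicate 2 of either 24 h group). Without replicate 2 of siNT1 at 48 h, wider-list genes called lower became 1 with siGGGGGC and 0 with siGGCAGU. Without replicate 2 of siNT1 at 24 h, 1 was higher over time. A smaller siGGGGGC effect at 48 h was called for 0 to 1, and it was 1 without replicate 1 of siNT1 at 24 h, replicate 2 of siGGGGGC at 24 h, replicate 2 of siNT1 at 48 h or replicate 1 of siGGGGGC at 48 h. Calls near the threshold were also lost for GSS (-0.98) without replicate 1 of siGGGGGC at 48 h, AKR1C2 (0.91) without replicate 1 of siNT1 at 48 h, EPHX1 (0.90 and 0.93) without replicate 2 of siGGGGGC or siNT1 at 48 h, FTL and PGD (both 0.93) without replicate 1 of siGGCAGU, FTL (0.87) without replicate 1 of siNT1 at 48 h, MAFK (0.86 and 0.95) without replicate 1 of siGGCAGU or replicate 2 of siGGGGGC at 48 h, and ABCC3 at 24 h (0.90) without replicate 2 of siNT1. The shortest 3′ UTRs held GCCCCC in 0 members and ACTGCC in 2, and the element core with TCA was in 0. The causes were not tested unless given. The last counts cover the members other than OSGIN1, the named regulators and genes of the rule, and the list of genes nearest OSGIN1. Of these values, 2714 stayed on their side of an adjusted p of 0.05, or for members within the spread. Another 43 moved beyond the spread, 19 went below an adjusted p of 0.05 and 67 went above it. For the named genes, a change of sign without an adjusted p below 0.05 in either fit was counted among the 2714.

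For each gene the log2 CPM of replicate 2 was subtracted from that of replicate 1 within a group. Between groups these differences correlated at -0.361 to 0.145, so the replicate numbers were not taken to pair libraries. With the replicate number as a block, OSGIN1 stood at 1.99, 5.33 and 2.12, and wider-list calls were 20 higher and 2 lower with siGGGGGC at 48 h, as without it. SRXN1, with 1 to 63 raw counts, is the member most limited by depth.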
